A study of Mus musculus with 26 samples.

Results

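Pladienolide B (PlaB) and retinoic acid (RA) are the chemical agents with which the study pushed mouse embryonic stem cells (mESCs) toward a totipotent-like state, and the comparison described here sets their transcriptomes against each other. It used 4 of the 26 RNA-seq libraries of the series, chosen by their labels alone: 2 of wild-type R1 mESCs kept with PlaB at 4 nM for 4 days and 2 of the same cells kept with RA at 0.53 µM for 48 h. The 2 DMSO libraries of wild-type R1 mESCs served both inductions as control, and 8 further libraries repeated the 2 treatments in Tdpoz-SE knockout cells (SE KO) and in Dux knockdown cells (Dux KD), with 2 libraries in each group. R1 is an established mESC line that was grown on gelatin with LIF, the cytokine that holds mESCs undifferentiated, and the labels of all these groups name the same medium and poly(A)-selected RNA. The Dux knockdown was made with shRNAs and the knockout removed a super-enhancer at the Tdpoz locus. Whether the knockout line was 1 clone, and how long the DMSO cells were kept, is not given in the sources used here. SE KO RA replicate 1 carries the knockout in its title and wild type in its genotype label. Because the agents were applied for different times, agent and duration cannot be told apart in any PlaB against RA value below. No label says that the replicates were separate cultures, so the tests measure the spread between libraries, which may be technical.

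RA enters the nucleus and binds retinoic acid receptors (RAR), which sit with RXR partners on direct repeats in DNA and switch on genes of retinoid turnover, the anterior Hox genes and many lineage regulators. In mESCs it is best known as an inducer of primitive endoderm and neural differentiation, and low doses also raise the share of cells in a state that resembles the 2-cell embryo. PlaB binds the SF3B complex, the part of the spliceosome that recognises the branch point of introns, and in sustained low doses it has been used to hold mESCs in a totipotent-like state. Cells of that state express the homeobox factor DUX, the Zscan4 cluster, and the Tcstv, Tdpoz, Usp17l, Obox and Pramel families, which are transcribed at zygotic genome activation and are called 2C genes here.

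Promoter sequences from both routes are shown because the comparison turns on their genes. Those of Rarb and Cyp26a1 hold the RAR element, and those of Zscan4c and Zscan4d hold letters near those that DUX binds. Each line gives the 150 bases before the RefSeq start of transcription, written 5′ to 3′ along the gene's strand, from RefSeq on GRCm38.p6, with the match in capitals. In the first 2 lines the capitals mark the direct repeat of GNTCA, any 6 bases and GNTCA (on the minus strand of Cyp26a1) and in the last 2 the reverse complement of TGATT, any 2 bases and ATCA.
Rarb, chr14:16575477-16575626, minus strand: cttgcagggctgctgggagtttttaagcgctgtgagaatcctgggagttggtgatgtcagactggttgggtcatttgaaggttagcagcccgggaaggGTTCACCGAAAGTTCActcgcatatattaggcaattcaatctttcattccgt
Cyp26a1, chr19:37697658-37697807, plus strand: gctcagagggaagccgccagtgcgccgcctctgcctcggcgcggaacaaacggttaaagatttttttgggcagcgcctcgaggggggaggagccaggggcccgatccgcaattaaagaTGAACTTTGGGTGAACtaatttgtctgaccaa
Zscan4c, chr7:11005595-11005744, plus strand: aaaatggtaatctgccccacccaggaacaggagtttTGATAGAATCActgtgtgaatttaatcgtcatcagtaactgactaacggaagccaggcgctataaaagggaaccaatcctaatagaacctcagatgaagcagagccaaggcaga
Zscan4d, chr7:11166149-11166298, minus strand: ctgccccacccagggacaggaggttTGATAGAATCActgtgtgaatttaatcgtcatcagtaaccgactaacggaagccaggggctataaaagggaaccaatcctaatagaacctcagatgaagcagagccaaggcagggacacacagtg

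The repeat of GNTCA, any 6 bases and GNTCA, searched on both strands, was present in 283 of 32851 RefSeq promoter windows of 250 bases before to 50 after the start, a share of 0.861%. Of the 24 genes of the RA pathway list, 18 had a window and 2 of these, Rarb and Cyp26a1, held the repeat, which began 52 bases before the start of Rarb and 32 bases before that of Cyp26a1. None of the 22 Hox genes with a window held it. The DUX letters TGATT, any base and AATCA were in 11 windows (0.0335%) and in none of the 30 windows of 2C genes. The looser TGATT, any 2 bases and ATCA, which includes the former and was chosen after that search had found none, was in 68 windows (0.207%) and in 4 of the 30, those of Zscan4b, Zscan4c, Zscan4d and Zscan4f. These are copies of a gene with near-identical sequence that can share reads, so the 4 matches are not separate observations and the counts of single Zscan4 genes are uncertain. The RefSeq start of Rarb lies within the longer span that the files give for the gene. A match of letters is a description and not a binding site.

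The PlaB libraries held 18617150 and 19471344 counts and the RA libraries 20958447 and 20194105, within the range of 14401452 to 39402840 over all libraries. Levels are given as CPM, counts scaled to a common library size after TMM normalisation, and 3 counts, the lowest level read here, were worth 0.132 to 0.145 CPM in these 4 libraries. Both PlaB libraries stood apart from every other library of this comparison in their shares of an rRNA gene and of mitochondrial mRNA. The rRNA gene CT010467.1 (chr17:39846353-39848201) took 2.91% and 3.45% of their counts, against 0.148% and 0.132% in RA and 0.107% in each DMSO library. Mitochondrial mRNA took 0.656% and 0.719% in PlaB against 3.14% and 3.52% in RA, and ribosomal protein genes took 3.56% and 3.19% against 4.75% and 4.67%. Mitochondrial rRNA went the other way from mitochondrial mRNA. It took 0.747% and 0.835% in PlaB, 0.167% and 0.184% in RA and 0.0924% and 0.0857% in DMSO. The PlaB libraries also detected more genes at 1 CPM or above, 15460 and 15449, than the RA libraries with 14983 and 14874 and the DMSO libraries with 13790 and 13710. SE KO cells under PlaB did not share the first of these traits, with 0.266% and 0.313% for CT010467.1, nor the second, with 4.98% and 4.22% for mitochondrial mRNA. Their ribosomal protein shares were 3.56% and 4.53%, the first of which equals that of PlaB replicate 1. What part the composition of the PlaB libraries had in the results below was not tested. Without these RNA classes in the fit, 5692 genes were called higher and 6354 lower, close to the counts with them. That refit mainly changes the scaling, so it cannot show the part of composition in the genes that remain.

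A gene was called when edgeR's quasi-likelihood test gave an adjusted p under 0.05 and the absolute log2 fold change was at least 1. Of 20953 genes tested, 5838 (27.9%) were called higher in PlaB than in RA and 6290 (30.0%) lower, 57.9% in all, and the median log2 fold change of all genes was 0. Against DMSO, PlaB had 6759 genes called higher (32.3%) and 5572 lower (26.6%), 58.9% in all, and RA had 4319 higher (20.6%) and 2180 lower (10.4%), 31.0% in all. With so many genes called, a list is described by how far its counts lie from these shares. On the higher side the 2C genes lay farthest, with 34 of 49 tested members higher in PlaB and 3 lower. On the lower side these were the Hox genes, with 33 of 35 lower and none higher, then the mitochondrially encoded genes with 11 of 13 and the primitive endoderm genes with 18 of 24. Stress lists were mixed in direction, as the plot of shares by list shows.

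**Figure D1:**
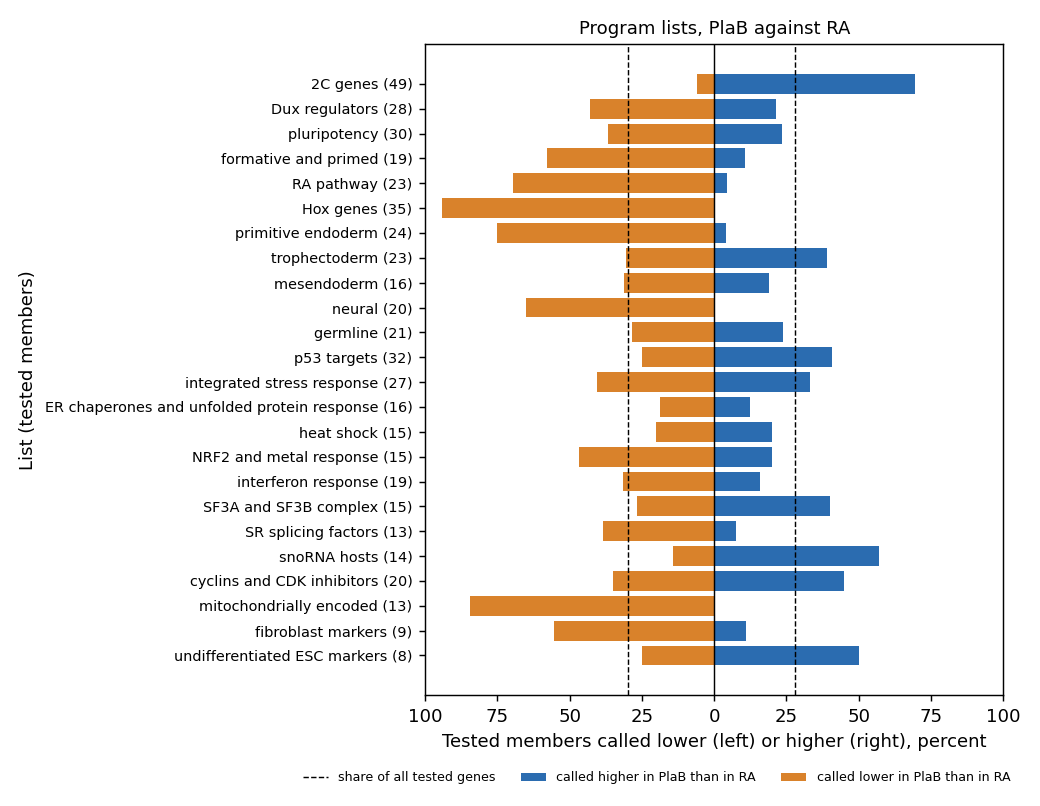
Share of the tested members of each of 24 gene lists called lower (bars to the left) or higher (bars to the right) in the 2 PlaB libraries than in the 2 RA libraries, in percent, with the number of tested members after each name. Dashed lines give the share of all tested genes, 30.0% lower and 27.9% higher. The 2C genes reach farthest beyond the line on the right, and the Hox and mitochondrially encoded genes farthest beyond the line on the left.

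Totipotent-like genes were raised by both agents and most of them farther by PlaB. Of the 52 listed 2C genes 49 could be tested, and 44 rose under PlaB and 42 under RA against the shared DMSO libraries, with median log2 fold changes of 7.99 and 6.03. In the direct comparison 34 were higher in PlaB, 3 lower and 12 not called, with a median of 1.90. The summed level of the list was 15100 and 15200 CPM in PlaB, 1890 and 1590 in RA and 39.4 and 35.5 in DMSO, so the groups did not overlap. In bulk RNA a larger share of cells in the state and more RNA per cell cannot be told apart.

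Duxf3 (chr10:58229979-58232675), the gene the files give for DUX, stood at 9.25 and 8.21 CPM in PlaB, 2.16 and 2.75 in RA and 0.0567 and 0 in DMSO. Both PlaB values lay above both RA values, a log2 fold change of 1.83 ± 0.34 (SE) with an adjusted p of 2.69e-05. DMSO held a single Duxf3 count, and the ratio over it was 87.7 for RA with a counting interval of 15.4 to 3500. Zscan4c, a telomere and genome stability factor of the 2-cell stage, reached 2670 and 2520 CPM in PlaB against 131 and 114 in RA and 1.76 and 1.32 in DMSO. The log2 fold change of Zscan4c between the agents was 4.41 ± 0.10 (adjusted p 5.7e-23). All 6 listed Zscan4 genes were called higher in PlaB, from 2.64 for Zscan4e to 4.41 for Zscan4c on the log2 scale. The promoter sequences of Zscan4c and Zscan4d shown above belong to genes that were high under both agents.

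Families of 2C genes did not share the margin. Pramel7 and Obox6, members of gene families expressed in the early embryo, showed the largest rises with Zscan4c. Pramel7 had 10.6 and 9.26 CPM in PlaB and 0.352 and 0.0931 in RA, a log2 fold change of 5.42 ± 0.43 (adjusted p 1.74e-11). Obox6 had 19.9 and 14.4 CPM against 0.749 and 0.652, a log2 fold change of 4.6 ± 0.38. Tdpoz4, which encodes a BTB-domain protein of oocytes and early embryos, had 1.94 and 2.41 CPM against 0.352 and 0.186 (2.97 ± 0.42), and Zfp352, a zinc finger factor of the 2-cell embryo, 5.57 and 3.90 against 1.28 and 1.63 (1.70 ± 0.25). Tcstv3, of a family expressed at the 2-cell stage, lost its call without either of 2 libraries: at 5.18 and 3.09 CPM against 2.33 and 1.72, its log2 fold change of 1.01 became 0.55 (adjusted p 0.0859) without PlaB replicate 1 and 0.79 without RA replicate 2.

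The deubiquitinase gene Usp17la and 2 other genes went against the list. Usp17le, of the same family, was higher in PlaB, with 262 and 299 CPM against 118 and 104 (1.33 ± 0.10). Usp17la was lower, with 72.2 and 61.2 CPM against 166 and 161 (log2 fold change -1.29 ± 0.10, adjusted p 6.6e-12), and its DMSO libraries held 0.340 and 0.219. Gm11545 was also lower, at 4.55 and 4.27 CPM in PlaB and 10 and 10.6 in RA, with no count in DMSO, which makes RA at least 61.7-fold and PlaB at least 26.3-fold higher than DMSO. Gpr63, a G protein-coupled receptor, was the only 2C gene that fell below DMSO under PlaB, with 0.291 and 0.136 CPM against 0.908 and 0.603, while RA had 3.26 and 1.91. These 3 genes are all that were lower in PlaB than in RA. Members of the Usp17l family are close copies and their counts may be split between them.

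**Figure D2:**
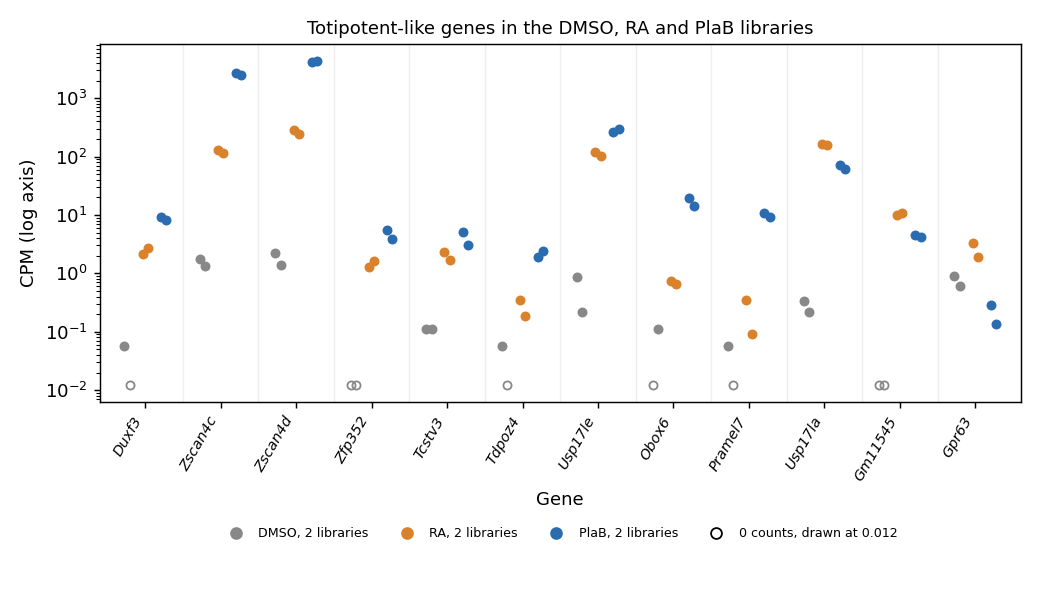
CPM on a log axis of 12 named 2C genes in each DMSO, RA and PlaB library; each point is 1 library and an open circle is a library with 0 counts, drawn at 0.012. PlaB points lie above RA points for 9 genes from Duxf3 to Pramel7, and below them for Usp17la, Gm11545 and Gpr63.

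Genes that are known to act on Dux went in both directions. Dppa2 and Dppa4, which bind DNA together and prime Dux and other bivalent genes, were higher in PlaB: Dppa2 had 1330 and 1160 CPM against 233 and 241 in RA and 110 and 117 in DMSO, and Dppa4 had 270 and 257 against 63.1 and 63.9 (log2 fold changes 2.39 ± 0.08 and 2.05 ± 0.07). Lin28a, an RNA-binding protein that takes part in silencing Dux through nucleolar chromatin, was higher in PlaB at 204 and 192 CPM against 46.3 and 41.5, but below the 243 and 250 of DMSO. Repressors of 2C genes were among the lower ones. The histone methyltransferase gene Ehmt2 had 11.4 and 10.5 CPM in PlaB and 89.3 and 92.3 in RA (-3.05 ± 0.12), the demethylase gene Kdm1a 78.5 and 76.2 against 419 and 455 (-2.50 ± 0.09), and Smchd1, a chromatin protein that represses Dux, 29.5 and 29.8 against 147 and 156 (-2.35 ± 0.10). In all 6 of 28 genes were higher and 12 lower (21.4% and 42.9%), with a median of -0.76. This list has long transcripts, with a median of 5580 bases. An exon length over 6640 bases was found in 12 of the 28, a range in which 51.2% of protein-coding genes were lower in PlaB. The part of length in these values was not tested. Against DMSO 17 fell under PlaB and 8 under RA.

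The pluripotency network was reduced by both agents, to different levels in single genes. Of 30 genes 17 fell under PlaB and 18 under RA against DMSO, and in the direct comparison 7 were higher and 11 lower, shares close to those of all genes. Pou5f1, the gene for OCT4, had 227 and 180 CPM in PlaB, 316 and 340 in RA and 873 and 931 in DMSO, so both agents lowered it and the difference between them (-0.69 ± 0.10, adjusted p 6.48e-07) was under the fold threshold. Nanog had 69.7 and 78.6 CPM in PlaB, whereas RA with 857 and 877 was near DMSO with 888 and 935, a log2 fold change of -3.55 ± 0.08 between the agents. Sox2 had 21.6 and 30.8 CPM in PlaB against 256 and 268 in RA and 594 and 590 in DMSO. Klf2 and Nr5a2, transcription factors of the naive state, were likewise low in PlaB and not in RA, at 6.44 and 6.58 against 142 and 154 CPM for Klf2 and at 9.78 and 8.89 against 157 and 154 for Nr5a2.

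Other pluripotency genes had the opposite order. Zfp42 (REX1) had 1230 and 1270 CPM in PlaB against 353 and 324 in RA (1.89 ± 0.07), with 952 and 941 in DMSO. Utf1, a chromatin factor of undifferentiated cells, had 235 and 246 CPM against 19.8 and 19.8 (3.6 ± 0.13), and Tcl1, an AKT cofactor, 98.7 and 76.9 against 7.27 and 7.13 (3.61 ± 0.17). For both, RA was the group far below DMSO, which held 411 and 433 CPM of Utf1 and 136 and 140 of Tcl1. Dppa3 (STELLA), a maternal factor, was higher in PlaB than in either other group, with 11.9 and 10.8 CPM against 0.485 and 0.605 in RA and 1.13 and 1.70 in DMSO. Of the 8 markers of undifferentiated cells, all detected in every library, 4 were higher in PlaB (among them Sall4 and Dppa5a) and 2 lower, and the list summed to 6250 and 5700 CPM in PlaB, 3620 and 3640 in RA and 7310 and 7370 in DMSO.

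Genes of the formative and primed states were mostly lower in PlaB, with 11 of 19 lower and 2 higher. Sox3, a partner of the epiblast program, had 0.242 and 0 CPM in PlaB and 18.6 and 15.8 in RA (-7.12 ± 0.40). Zic2 had 0.242 and 0.0454 against 17.2 and 16.2, and Sall2 1.55 and 0.681 against 35.2 and 37.6. Otx2, an epiblast and head organiser gene, went the other way, with 24.3 and 25.7 CPM in PlaB against 1.67 and 2.38 in RA and 7.09 and 8.99 in DMSO (3.63 ± 0.19), and Dusp6, an ERK phosphatase and target of FGF signalling, was the other higher member at 58.9 and 69.1 against 28.5 and 29.9. Fgf5, the classical marker of the primed epiblast, was too low to be tested, at 0.484 and 0.227 CPM in PlaB and 0.0881 and 0.0466 in RA.

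The retinoid program set RA apart. Of 23 tested genes of the RA pathway 14 rose and 1 fell under RA against DMSO, while PlaB had 7 up and 5 down. Between the agents 16 were lower in PlaB and 1 higher (69.6% and 4.35%), with a median log2 fold change of -1.85. Among the enzymes that clear RA, Cyp26a1 had 72.6 and 68.6 CPM in RA, 0.872 and 0.908 in PlaB and 0.170 and 0.439 in DMSO (-6.30 ± 0.22 between the agents, adjusted p 1.06e-19). Cyp26b1 had 10.6 and 10.2 CPM in RA and 0.242 and 0.182 in PlaB, and Cyp26c1 3.17 and 2.47 against 0 and 0.0908, a ratio of 60.4 with a 95% counting interval of 16.4 to 504. All 3 were near the DMSO level in PlaB, with Cyp26a1 alone above it by the test (1.52 ± 0.48, adjusted p 0.00625).

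Receptors and carriers followed the enzymes. Rarb, the receptor gene that RA itself induces and whose promoter element is shown above, had 10.9 and 9.18 CPM in RA, 0.533 and 0.454 in PlaB and 0.113 and 0.274 in DMSO (-4.33 ± 0.35, adjusted p 9.09e-12). The binding protein gene Crabp2 had 30.8 and 32.4 CPM in RA against 7.75 and 6.99 in PlaB (-2.10 ± 0.15), and the retinol transporter gene Stra6 30.3 and 32.2 against 0.969 and 1.41 (-4.70 ± 0.25). Stra8, a meiosis gene named for its response to RA, had 755 and 814 CPM in RA and 46.8 and 41.5 in PlaB (-4.15 ± 0.13). Crabp2, Stra6 and Stra8 also rose under PlaB against DMSO, by 1.17 ± 0.19, 2.22 ± 0.49 and 1.18 ± 0.13 on the log2 scale. The only member higher in PlaB was Rxrg, a partner receptor, with 3.58 and 3.68 CPM against 2.07 and 1.26 (1.12 ± 0.30), a call lost without RA replicate 2 (0.78, adjusted p 0.0535).

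Hox genes, which pattern the body axis and are opened from the 3′ end of each cluster by RA, had the highest share of members called in 1 direction among the 24 lists. Of 39 genes 35 were tested: 34 rose under RA against DMSO, 10 rose and 1 fell under PlaB, and 33 were lower in PlaB than in RA with a median of -3.68. With levels raised to the floor of 3 counts per library the median was -3.22. Hoxb1 had 32.9 and 36.5 CPM in RA and 0.0484 and 0.0908 in PlaB, which was 1 count and 2 counts, a ratio of 492 with a 95% counting interval of 168 to 2390. Hoxb5 and Hoxb8 were without a count in both PlaB libraries, and RA was at least 36.4-fold and at least 57.9-fold higher. The 2 tested genes not called were Hoxc5 (0.533 and 1.18 CPM in PlaB, 1.15 and 0.559 in RA) and Hoxc13 (7.12 and 6.13 against 7.05 and 6.43), which are named here to complete the count. The summed level of the list was 341 and 347 CPM in RA, 26.1 and 27.2 in PlaB and 13.2 and 14.6 in DMSO.

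**Figure D3:**
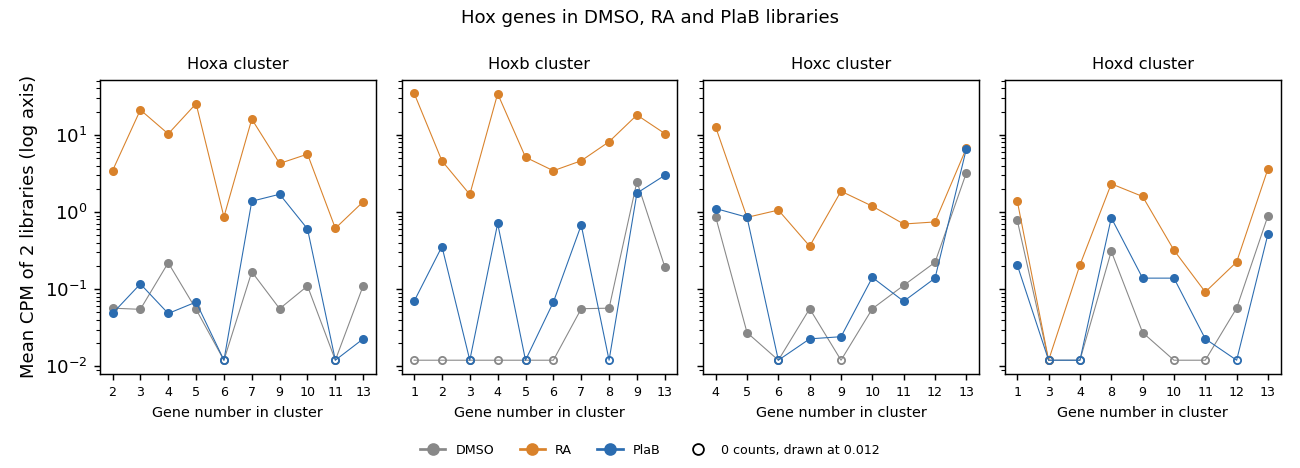
Mean CPM of 2 libraries on a log axis for genes of the 4 Hox clusters, in the order of their number in the cluster, in DMSO (grey), RA (orange) and PlaB (blue); open circles are groups with 0 counts, drawn at 0.012, and lines only join neighbouring genes. RA lies above PlaB at the called genes shown, among them Hoxb1, Hoxb5 and Hoxb8, and both groups meet at Hoxc5 and Hoxc13.

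Primitive endoderm genes had the next clearest order among the lineages. Of 24 tested genes 18 were lower in PlaB than in RA and 1 higher, and against DMSO 18 rose under RA, while 11 rose and 7 fell under PlaB. Transcripts of this list are long, with a median of 4800 bases among its tested members. Long protein-coding genes were more often lower in PlaB than short ones, as given below. The part of length in the primitive endoderm counts was not tested. Foxa2, a pioneer factor of endoderm, had 16.5 and 15.5 CPM in RA and no count in PlaB or DMSO, at least 114-fold above PlaB. Gata6 and Gata4, which specify primitive endoderm, had 25.5 and 28.2 and 10.8 and 12.7 CPM in RA against 5.91 and 5.54 and 1.84 and 1.95 in PlaB (-2.23 ± 0.17 and -2.62 ± 0.23). Gata6 in PlaB was above DMSO (1.79 ± 0.23, adjusted p 5.97e-08) and Gata4 had no such call. Genes of the basement membrane and its assembly were lower too: the collagen gene Col4a2 had 5.04 and 7.35 CPM in PlaB, 256 and 287 in RA and 38.3 and 43.9 in DMSO, and Serpinh1, a collagen chaperone, 5.38 and 7.08 against 300 and 301 and 93.0 and 91.1. Sox17 was not called between the agents, at 3.49 and 3.22 CPM in PlaB and 1.63 and 1.86 in RA (0.94 ± 0.41, adjusted p 0.0387, and 1.07 with another scaling), and Amn, a receptor partner of visceral endoderm, was the 1 gene called higher in PlaB (5.33 and 4.31 against 0.705 and 0.792).

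Neural genes were lower in PlaB in 13 of 20 tests and higher in none, with a median of -1.98. The neural progenitor genes Sox1 and Nes had 0.194 and 0.136 and 4.12 and 1.95 CPM in PlaB, against 3.88 and 4.19 and 51.3 and 53 in RA and 5.16 and 4.11 and 30.7 and 30.9 in DMSO. For these genes PlaB was the group that left the DMSO level, and RA moved neither past the thresholds. Irx3, a patterning factor, had 7.36 and 7.13 CPM in RA, 0.533 and 0.182 in PlaB and 0.567 and 0.987 in DMSO, where RA was above DMSO (3.20 ± 0.30) and PlaB lay below it by -1.13 ± 0.47 (adjusted p 0.0309) on few counts. The neural list has long transcripts, with a median of 5780 bases among its tested members.

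Trophectoderm, mesendoderm and germline lists had members in both directions, at shares not far from the 27.9% higher and 30.0% lower of all genes. Of 23 trophectoderm genes 9 were higher in PlaB and 7 lower (39.1% and 30.4%). Krt7, a simple epithelial keratin, had 7.60 and 10.2 CPM in PlaB against 0.661 and 1.16 in RA (3.29 ± 0.38), the ligand gene Bmp4 had 73.6 and 78.4 against 7.49 and 8.94 (3.21 ± 0.12), and the trophoblast factor gene Ascl2 10.3 and 11.7 against 0.793 and 1.63. Gata3 was higher in PlaB, at 3.44 and 3.86 CPM against 1.59 and 1.30, and Cdx2, the factor that specifies trophectoderm, was low in both at 0.388 and 0.771 against 0.308 and 0.140 (adjusted p 0.0779; 1.48 and called with protein-coding genes only). On the other side the imprinted placental gene Peg10 had 5.09 and 6.63 CPM in PlaB, where RA had 1120 and 1150 and DMSO 1010 and 1030 (-7.59 ± 0.22 against RA), and Tfap2a and Esx1 were lower as well.

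In mesendoderm 3 of 16 genes were higher and 5 lower (18.8% and 31.2%, against 27.9% and 30.0% of all genes). Wnt3, the ligand that starts the primitive streak, had 4.46 and 3.58 CPM in PlaB against 0.793 and 1.40 in RA, while the activin receptor gene Acvr2b and the Nodal inhibitor gene Lefty1 were among the lower ones. Brachyury (T) had 0.727 and 0.862 CPM in PlaB against 0.0441 and 0.279 in RA, and its call was lost without RA replicate 1 (1.46, adjusted p 0.144). Germline genes had 5 of 21 higher and 6 lower (23.8% and 28.6%). Dazl, an RNA-binding protein of germ cells, rose with both agents against DMSO and had 49.4 and 55.6 CPM in PlaB and 58.4 and 47.2 in RA, values that overlap (log2 fold change -0.01 ± 0.13). Tex101, a germ cell surface protein, was higher in PlaB (23.9 and 25.5 CPM against 1.85 and 1.72), as were Slc25a31 and Nanos3, and the meiotic genes Meioc (7.41 and 9.89 against 74.8 and 71.3) and Rec8 (32.4 and 30.1 against 144 and 149) were lower, as was Kit. Of the fibroblast markers 9 of 12 were tested, 5 were lower in PlaB and 1 higher, and their sum was 17.5 and 21.7 CPM in PlaB, 111 and 124 in RA and 55.7 and 56.2 in DMSO. The higher one was Acta2, with 4 and 27 counts in the PlaB libraries and 5 in each RA library, and S100a4, Lum and Postn were at or under 1 count in each of these libraries.

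Stress programs had members in both directions between the agents. Of the p53 targets 14 of 32 rose under PlaB and 3 fell against DMSO (43.8% and 9.38%), while 11 rose and 2 fell under RA (34.4% and 6.25%). Of all genes 32.3% rose and 26.6% fell under PlaB, and 20.6% rose and 10.4% fell under RA. In the direct comparison 13 were higher in PlaB and 8 lower (40.6% and 25%, against 27.9% and 30.0% of all genes). The median was 0.12, and -0.01 without the filter on low counts. Mdm2, the ubiquitin ligase that p53 induces and that degrades it, had 1340 and 1450 CPM in PlaB, 129 and 120 in RA and 71.3 and 65.5 in DMSO (3.49 ± 0.10 between the agents, adjusted p 2.25e-21). Cdkn1a, the p21 cell cycle inhibitor, had 499 and 496 CPM against 114 and 120 (2.09 ± 0.12). Perp, a death-linked membrane protein, and Dcxr, a metabolic enzyme, were also higher, at 85.3 and 98.0 against 10.4 and 11.2 CPM and at 62.7 and 61.4 against 8.81 and 10.9. The apoptosome gene Apaf1 (22.2 and 21 against 125 and 121 CPM), the mTORC1 inhibitor gene Ddit4 (26.1 and 30.7 against 154 and 156) and the kinase gene Plk3 (10.5 and 11.3 against 35.4 and 37.6) were lower in PlaB. Ccng1 rose under both agents and had overlapping values, 453 and 525 CPM in PlaB and 486 and 474 in RA.

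The integrated stress response, in which ATF4 drives amino acid and redox genes once translation is restrained, was lower than DMSO in most genes under both agents, with 15 of 27 fallen under each and 5 risen under PlaB and 1 under RA. Between the agents 9 were higher in PlaB and 11 lower, with a median of 0.67. These shares, 33.3% and 40.7%, compare with 27.9% and 30.0% of all genes. Ddit3, the gene for the death-linked factor CHOP, had 42.7 and 37.5 CPM in PlaB, 6.21 and 5.68 in RA and 19.3 in each DMSO library, so the agents lay on either side of the control (2.75 ± 0.13, adjusted p 1.57e-16). Atf4 itself had 130 and 123 CPM in PlaB against 57.7 and 56.4 in RA and 240 and 237 in DMSO. Trib3, which restrains ATF4, had 41.7 and 42.7 against 6.87 and 7.59, Asns, the asparagine synthetase, 1660 and 1500 against 443 and 462, and Eif4ebp1, a brake on cap-dependent translation, 601 and 540 against 85.5 and 93.6. The lower members were led by Cebpb, a leucine zipper factor (0.145 and 0 CPM against 4.71 and 4.61, a ratio of 66.3 with a 95% counting interval of 22.4 to 324 for RA over PlaB), the amino acid transporter gene Slc7a5 (6.54 and 7.40 against 118 and 131) and Stc2, a secreted glycoprotein (1.02 and 0.590 against 8.77 and 9.18).

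Protein folding genes were called less often than all genes, of which 27.9% were higher and 30.0% lower. Of 16 chaperones and genes of the unfolded protein response in the endoplasmic reticulum 2 were higher in PlaB and 3 lower (12.5% and 18.8%). Hspa5 (BiP), the central chaperone of that compartment, had 780 CPM in each PlaB library against 769 and 773 in RA (0.02 ± 0.07). Herpud1, a part of the degradation machinery, had 124 and 115 CPM against 15.1 and 16.3, and Creld2 had 238 and 230 against 59.6 and 58.2. Hyou1 and Calr, chaperones of the same compartment, were lower at 14.8 and 12.3 against 346 and 350 CPM and at 134 and 125 against 1110 and 1250, as was Pdia4. Heat shock genes were 3 higher and 3 lower of 15, 20% in each direction. Dnajb1, a cochaperone of HSP70, had 492 and 413 CPM against 70.7 and 68.9. The neighbouring HSP70 genes Hspa1a and Hspa1b went apart, 16.8 and 25.8 against 9.07 and 8.90 for the former and 1.94 and 1.77 against 26 and 24.2 for the latter. They are near-identical copies, so the split of reads between them is uncertain, and the Hspa1a call was lost without PlaB replicate 2 (0.89). Hspa8 was called higher (1.11 ± 0.09; 0.98 without the filter on low counts), while Bag3 and Hspa4l were lower.

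Among 15 targets of NRF2 and of metal stress 3 were higher in PlaB and 7 lower (20% and 46.7%, against 27.9% and 30.0% of all genes). The ferritin light chain gene Ftl1 had 3260 and 3040 CPM in PlaB, 290 and 308 in RA and 250 and 253 in DMSO (3.39 ± 0.14), and Prdx1, a peroxidase, 2690 and 2350 against 706 and 700. The thioredoxin reductase gene Txnrd1 and the sulfiredoxin gene Srxn1 were lower, and the zinc exporter gene Slc30a1 had 4.55 and 5.85 CPM against 68.3 and 68.0. The much used sentinels Hmox1 and Nqo1 were not called, with log2 fold changes of 0.27 ± 0.11 and 0.84 ± 0.10. Of 19 interferon genes 10 rose and 2 fell under PlaB against DMSO (52.6% and 10.5%, against 32.3% and 26.6% of all genes). Under RA 11 rose and 1 fell (57.9% and 5.26%, against 20.6% and 10.4%). Between the agents 3 were higher in PlaB and 6 lower (15.8% and 31.6%). The RNA sensor gene Ifih1 and the antiviral gene Oasl2 were raised by RA, to 6.48 and 5.68 and to 9.51 and 8.20 CPM, and lay at 0.339 and 0.771 and at 0.291 and 0.545 in PlaB. Ddx58 (RIG-I), also an RNA sensor, had 27.8 and 27.7 CPM in PlaB against 2.95 and 2.79 in RA and 15.3 and 15.6 in DMSO, and the chemokine gene Cxcl10 was higher too. Isg15 was too low to be tested.

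**Figure D4:**
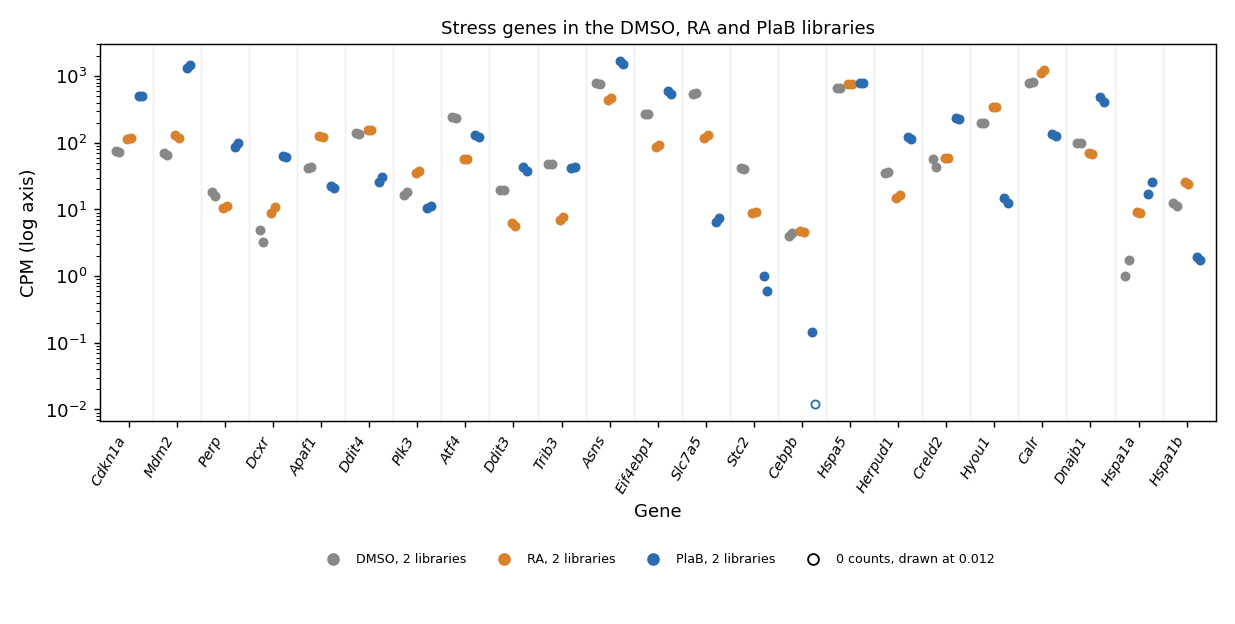
CPM on a log axis of 23 named stress genes in each DMSO, RA and PlaB library; each point is 1 library and an open circle is a library with 0 counts, drawn at 0.012. Within the p53, integrated stress response, chaperone and heat shock genes some lie above the RA points in PlaB (Mdm2, Ddit3, Herpud1, Dnajb1) and others below (Apaf1, Slc7a5, Hyou1, Hspa1b), and Hspa5 stays level.

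The splicing machinery that PlaB binds had members in both directions. Of 15 genes of the SF3A and SF3B complexes and their partners 6 were higher in PlaB and 4 lower, with a median of 0.76. These shares, 40% and 26.7%, compare with 27.9% and 30.0% of all genes. Sf3b1, whose protein forms the PlaB pocket with PHF5A, had 484 and 466 CPM in PlaB, 733 and 746 in RA and 733 and 735 in DMSO (-0.64 ± 0.08, under the fold threshold), and Phf5a had 188 and 164 against 54.9 and 54.0 (1.69 ± 0.10). U2af1 and U2af2, the small and large subunits of the factor that reads the 3′ splice site, went apart, with 474 and 413 against 77.6 and 72.4 CPM for U2af1 and 57.3 and 60.2 against 345 and 359 for U2af2. Sf3b5 was higher (202 CPM in each PlaB library against 36.1 and 37.9), and Sf3a2 and Sf3a1 were lower. Of 13 SR proteins, which mark exons, 5 were lower and 1, Srsf10, higher (38.5% and 7.69%). Their transcripts are long as well, with a median of 4810 bases. Srsf1 had 32.5 and 40.5 CPM against 474 and 445 (-3.65 ± 0.10), Srsf2 24.8 and 34.9 against 284 and 269 (-3.21 ± 0.10) and Srsf9 6.73 and 5.08 against 75.9 and 73.0, and for these 3 RA moved less than the fold threshold from DMSO.

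Host genes of snoRNAs, whose spliced transcripts are normally removed by nonsense-mediated decay, had 8 of 14 higher in PlaB and 2 lower (57.1% and 14.3%). Snhg6 had 119 and 131 CPM against 11.2 and 8.71 in RA (3.65 ± 0.15), Snhg15 108 and 113 against 12.5 and 9.83, and Gas5 172 and 180 against 30.5 and 26.8, while Snhg18 (1.02 and 1.18 against 5.90 and 6.80) and Snhg12 were lower. Against DMSO 3 rose and 5 fell under PlaB, and 8 fell under RA and none rose. For Gas5 the gap held 2 moves, since RA was below the 110 and 107 CPM of DMSO (-1.92 ± 0.15) and PlaB was above it by less than the fold threshold (0.70 ± 0.14).

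Cell cycle genes were likewise split. Of 20 cyclins, inhibitors and proliferation genes 9 were higher in PlaB and 7 lower (45% and 35%, against 27.9% and 30.0% of all genes). Myc had 61.9 and 60.9 CPM in PlaB, 6.08 and 5.68 in RA and 35.8 and 38.5 in DMSO (3.38 ± 0.15), and Ccne1, the G1 to S cyclin E, 322 and 313 against 75.9 and 76.3. Ccnd1, cyclin D1, was lower in PlaB at 20.7 and 19.2 against 48.1 and 51.0. The inhibitors did not go together: Cdkn1a was higher as given above, whereas Cdkn1b (4.65 and 7.76 against 98.6 and 89.1), Cdkn1c (1.99 and 2.18 against 43.3 and 45.3) and Cdkn2a were lower. Of the 13 mitochondrially encoded mRNAs 11 were lower in PlaB than in RA and in DMSO, and none was called in RA against DMSO. Mitochondrial rRNA, in contrast, took a larger share of counts in PlaB than in RA or DMSO. The largest gaps were those of mt-Nd4l, with 0.194 and 0.227 CPM in PlaB and 20.1 and 43.5 in RA, and of the oxidase subunit mt-Co2, with 2.13 and 1.86 against 189 and 239.

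The genes with the largest differences of all had little to do with the lists on the higher side. The 5 largest rises were in genes without an established function: Gm27782 (chr15:62080245-62080443, a small RNA gene), Gm31266 (an antisense RNA gene) and Gm45762, Gm37940 and Gm43274 (gene models awaiting experiment). Gm27782 had 41.1 and 40.6 CPM in PlaB and no count in RA or DMSO, at least 301-fold above RA. Gm31266 had 55.7 and 62.1 CPM in PlaB and 1 count in RA, a ratio of 2610 with a 95% counting interval of 467 to 103000. Antisense and overlapping gene models cannot be told apart from their neighbours unless reads were counted by strand, which is not given in the sources used here. The 5 largest falls were Foxa2, Hoxb8, Igfbp5, Islr2 and Rbm24. Igfbp5, a growth factor binding protein, had 121 and 119 CPM in RA and 0.145 and 0.0454 in PlaB, Islr2, a neuronal membrane protein, 60.6 and 65.4 against 0 and 0.136, and Rbm24, a splicing regulator of muscle, 49.6 and 47.4 against 0.0969 and 0.0454.

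Gene class and length moved with the PlaB comparison. By the GENCODE M21 classes, 22.7% of 15549 protein-coding genes were higher in PlaB than in RA and 35.1% lower, a median of -0.27. In noncoding classes the balance was the other way, with 40.9% higher and 14.4% lower of 780 lincRNA genes, 45.2% and 12.7% of 753 antisense genes, and 54.3% and 11.6% of 752 gene models awaiting experiment. Of that last class 12.9% were higher and 6.65% lower in RA against DMSO. Of the protein-coding genes with an exon length of up to 2640 bases, 40.2% were higher and 18.8% lower, and of those over 6640 bases 9.29% and 51.2%. Over genes, which are not replicates, Spearman's rho of exon length with the log2 fold change was -0.315 for PlaB against RA, 0.0232 for RA against DMSO and 0.000438 for PlaB against RA in SE KO cells. Of the 49 tested 2C genes 41 were in the shorter range, as were 24 of 35 Hox genes. The part of length, class and RNA composition in single genes was not tested.

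In SE KO cells the same agents gave some of the same orders. There 3990 genes were called higher in PlaB than in RA (19.0%) and 3907 lower (18.6%), 37.7% in all. The 2C genes had 38 members higher and 1 lower with a median of 2.73, the Hox genes 26 lower and 4 higher with -3.13, and the RA pathway 13 lower and 1 higher with -3.33. Zscan4c had 178 and 145 CPM under PlaB and 13.9 and 13.3 under RA (3.57 ± 0.11), each below the wild-type group of the same agent, and Cyp26a1 0.434 and 0.326 against 63.0 and 64.1 (-7.35 ± 0.24). Tdpoz4, from the locus of the deleted enhancer, was not called, at 0.564 and 0.233 CPM against 0.186 and 0.296.

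Several other programs had another order in SE KO cells. The integrated stress response had 17 genes lower in PlaB and 2 higher (median -1.61): Ddit3 had 9.63 and 7.83 CPM under PlaB and 61.3 and 66.5 under RA, the reverse of wild-type cells, and the difference between the backgrounds was -5.62 ± 0.18 by the interaction test (adjusted p 1.48e-19). Primitive endoderm genes had 6 higher and 4 lower, with Gata6 at 34.2 and 41.1 CPM under PlaB and 14.4 and 14.8 under RA. Pluripotency genes had 17 higher and 3 lower, with Sox2 at 393 and 412 against 132 and 136 CPM. Nanog, at 645 and 634 against 441 and 433 CPM, differed by less than the fold threshold. Srsf2 had 359 and 400 CPM under PlaB against 114 and 115, and 6 of the 13 mitochondrially encoded genes were higher and none lower. The p53 targets had 13 members higher and 2 lower, with Mdm2 at 469 and 397 CPM against 95.6 and 96.8 (2.17 ± 0.09). Over all genes the difference between the backgrounds was called for 49.0%, so single differences are common.

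In Dux KD cells 1415 genes were higher in PlaB than in RA (6.75%) and 3585 lower (17.1%), 23.9% in all. Duxf3 had 0.0590 and 0 CPM under PlaB and 0.919 and 0.354 under RA, below the wild-type values of the same agents. None of the 2C genes was higher in PlaB and 41 were lower, with a median of -4.83, the opposite order to wild-type cells: their sum was 69.5 and 65.7 CPM under PlaB and 1110 and 1120 under RA, against 15100 and 15200 and 1890 and 1590 in wild-type cells. Of the Hox genes 32 were lower in PlaB and 1 higher. Mdm2, at 244 and 240 CPM under PlaB and 234 and 231 under RA, was not called, and the p53 list had 4 higher and 1 lower. The Dux KD libraries under PlaB lacked the composition of the wild-type PlaB libraries, with 0.0965% and 0.0939% of counts in CT010467.1 and 2.86% and 2.80% in mitochondrial mRNA. The difference from wild type was called for 52.2% of genes.

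**Figure D5:**
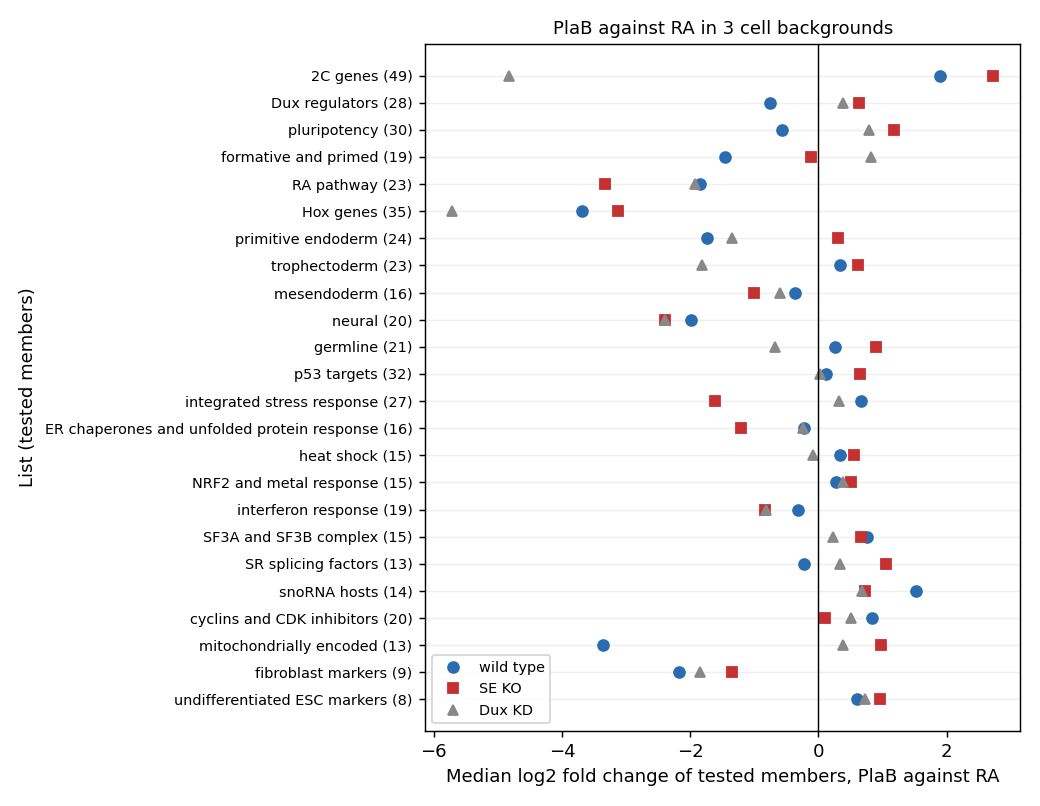
Median log2 fold change of the tested members of each of 24 lists, PlaB against RA, in wild-type (blue circles), SE KO (red squares) and Dux KD (grey triangles) cells, with the number of tested members after each name; points right of 0 are higher in PlaB. The 2C genes lie at 1.90, 2.73 and -4.83 in the 3 backgrounds, the Hox genes are left of 0 in all, and the integrated stress response changes side between wild-type (0.67) and SE KO cells (-1.61).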

How the data were processed

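RNA-seq reads of 26 libraries had been reduced by the authors to raw read counts per gene, and the deposited table gives 55291 genes without normalisation. The submitters' processing notes name FastQC, Trimmomatic, STAR, featureCounts, DESeq2 and the build mm10, with no role or version; strand and multimapping settings are not given in the sources used here. Libraries were grouped by their labels. Genes were tested with edgeR 4.0.16 (R 4.3.3): TMM normalisation, the default filter on low counts, which left 20953 genes, and a quasi-likelihood F-test in a single model of 13 groups with 2 libraries each, with Benjamini-Hochberg adjustment. Called genes had an adjusted p under 0.05 and differed by 1 or more on the log2 scale. Errors are approximate standard errors (SE) of log2 fold changes. Each was derived from the test, as the absolute log2 fold change over the square root of F. At few counts they can be smaller than counting error. CPM used TMM effective library sizes. Where a group had no count, folds are lower bounds against 3 counts per library; where it had 1 to 3, exact binomial 95% intervals are given. These bounds and intervals cover counting error only. Gene classes came from GENCODE M21, exon lengths were those given with the deposited counts, and promoters came from RefSeq.

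Members and gene lists were chosen with earlier results of these data known. The genes named were 45 fixed anchor genes, up to 3 called genes per list and direction with the largest fold change among those at 1 CPM or more in every library of the higher group, and the 5 largest rises and falls over all genes whose log2 CPM averaged 1 or more and whose groups did not overlap. Same-numbered replicates did not deviate together (correlations of -0.051 to -0.00529), so no pairing was used. On simulated data for 20953 genes, 98 of 100 genes changed 2-fold and 100 of 100 changed 4-fold passed the adjusted p in PlaB against RA. With the fold threshold 47 and 100 were called, with 3 false calls among unchanged genes. The changed genes were few and drawn from genes with higher counts, and every gene had the same spread. These figures therefore do not extend to genes with low counts. Alternatives were another scaling, DESeq2 1.42.0, no filter, fewer libraries in the fit, a replicate block, another prior count, another control and leaving out each library; removal of rRNA, mitochondrial and ribosomal protein genes, protein-coding genes only, and the alternatives in SE KO and Dux KD cells were added after seeing the data. Some single genes are not reported here, though list counts and sums include them.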

Additional observations from a re-analysis of the deposited data

Results flagged for a closer look

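The difference between PlaB and RA was set against the same difference in SE KO cells by an interaction test in edgeR, in which 49.0% of all genes were called. Of the fixed genes 29 were called, each value below being the log2 fold change in SE KO cells minus that in wild-type cells. Among 2C genes the gap was wider for Tcstv3 (1.54) and Usp17le (2.01) and narrower for Tdpoz4 (-2.26). Sox2 (4.91) and Nanog (4.1) were lower in PlaB than in RA in wild-type cells and had a log2 fold change above 0 in SE KO cells. Of the fixed genes in the RA pathway, Cyp26a1 had -1.06, Crabp2 -2.71 and Stra6 -1.22. The whole RA pathway list was mixed by this test, with 7 of 23 tested members called higher and 8 lower. The endoderm genes had positive values, with Gata4 at 2.62, Gata6 at 3.6 and Sox17 at 1.64. Gata3 (1.35), Sox1 (1.84) and Dazl (1.75) were positive too, while T had -4.2.

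All the stress genes among these fixed genes except Ccng1 had a negative value, which did not hold for the stress lists as wholes. By the same test 11 of 32 p53 targets were called higher and 8 lower, and 5 of 27 integrated stress response genes higher and 15 lower. The counts were 2 and 6 of 16 for endoplasmic reticulum chaperones and 4 and 3 of 15 for heat shock. They were 8 and 2 of 15 for NRF2 and metal response and 5 and 4 of 19 for interferon genes. The p53 targets Cdkn1a and Mdm2 had -1.52 and -1.31, and Ccng1 had 1.59. Atf4 had -1.57, Ddit3 -5.62, Trib3 -5.09 and Asns -1.73, and the chaperone genes Hspa5 and Hspa1a -1.43 and -3.27. Of the splicing genes Sf3b1 had 1.22, Phf5a -1.02 and Srsf2 4.94, and of the cyclins Ccnd1 had 1.84 and Ccne1 -1.7. SE KO PlaB libraries differed from each other more than most pairs, with a chi-square per degree of freedom of 30.2 against 6.19 for the wild-type PlaB pair, and their part in these values was not tested.

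In Dux KD cells, where 52.2% of all genes were called by the same test, the difference from wild type was -5.99 for Duxf3 and -10.37 for Zscan4c.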

How the results depend on the processing

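PlaB against RA gave 5620 to 5763 genes higher and 6186 to 6305 lower when single libraries were left out, PlaB against DMSO 6352 to 6723 and 5508 to 5763, and RA against DMSO 3727 to 4071 and 2008 to 2183. SE KO cells gave 3461 to 4108 and 3654 to 3950, and Dux KD cells 1274 to 1456 and 2887 to 3230. List medians then ranged from 1.69 to 2.12 for 2C genes, -1.91 to -1.87 for the RA pathway, -4.49 to -3.57 for Hox genes, 0.01 to 0.17 for p53 targets and 0.59 to 0.69 for the integrated stress response. A lone remaining library was assumed to vary like the other groups. With no fold threshold RA against DMSO had 6766 genes higher and 5581 lower, SE KO cells 6892 and 6569, and Dux KD cells 5098 and 5676; with library size only, Dux KD cells had 914 higher. RLE factors and DESeq2 each moved the median of all genes in PlaB against RA by 0.13. With library size only, RA against DMSO had 5047 higher and 1525 lower, 76.8% of calls higher against 66.5%.

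The 2C median of 1.90 was 1.64 without the filter, 2.20 with only DMSO, RA and PlaB libraries, 2.21 with only PlaB and RA, and 2.15 with protein-coding genes. The RA pathway median was -1.73 with RLE and DESeq2, -1.79 with library size, -1.77 without the filter, -1.89 without rRNA, mitochondrial and ribosomal protein genes, -1.72 with protein-coding genes and -1.64 at the floor. The Hox median was -3.56 with RLE, -3.62 with library size, -3.82 with DESeq2, -3.29 with a prior count of 2, -3.55 with protein-coding genes and -3.22 at the floor. For p53 targets it was 0.25 with RLE and DESeq2, -0.01 without the filter and 0.26 with protein-coding genes, and for the integrated stress response 0.79 with RLE and DESeq2, 0.73 with library size, 0.33 without the filter and 0.81 with protein-coding genes. The causes were not tested.

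Of 2278 values of named genes under alternatives, 2241 kept their direction and side of the thresholds. Those that turned direction belonged to genes near 0 that were not called. Dazl had 0.12 with RLE and DESeq2, 0.05 with library size, 0.00 and 0.01 with fewer groups in the fit, 0.13 with protein-coding genes, and 0.02 and 0.13 without PlaB or RA replicate 1 (from -0.18 to 0.13 over all libraries left out). Ccng1 had -0.10 without the filter, -0.01 without rRNA, mitochondrial and ribosomal protein genes, and -0.09 and -0.02 without PlaB or RA replicate 2 (from -0.09 to 0.08). Hspa5 had -0.11 and -0.02 without the filter and without those RNA classes, -0.03 without PlaB replicate 1 and -0.01 without either RA replicate. The labels' replicate numbers are shared between groups without a stated pairing; with a replicate block PlaB against RA had 5799 genes higher and 6282 lower, no count over all genes moved by over 1.5 times, and among the lists 1 neural gene was called higher where none had been. Counts under 3 in a library limit the Hox, 2C and Cyp26 genes in DMSO and PlaB.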
